A study of Mus musculus with 33 samples.

Results

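This section concerns Mdm2 inhibition in lymphomas that keep wild-type p53: 6 of the 26 deposited p53 peak lists, of 33 samples in the series. They are the lists titled (-)-Nutlin and DMSO from Arf tumours 5, 6 and 7, 3 against 3, and each tumour gave a list to both groups. All came from Eµ-myc lymphomas of the C57/Bl6 strain with the genotype Arf-/- Trp53+/+, in which the Myc oncogene is driven in B cells, Arf is lost and both Trp53 alleles are intact. Cells pressed from lymph nodes, labelled as B cells and not purified further, received 5 µM (-)-Nutlin or 0.5 volumes per 1000 of DMSO, the solvent, for 3 h. Binding of p53 was mapped by chromatin immunoprecipitation with the antibody CM5p and sequencing (ChIP-seq). Peak lists carry no expression values, so the labelled cell type could not be checked against marker genes. The labels used here name neither the age nor the sex of the mice, nor the mouse behind each tumour. Whether tumours are separate animals is therefore unknown, and p-values measure the spread between these lists.

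Trp53 encodes p53, a transcription factor that stops the cell cycle or triggers apoptosis when it accumulates. Mdm2 is a ubiquitin ligase that binds p53, masks its activation domain and sends it for degradation, and p53 in turn activates the Mdm2 gene. Arf holds Mdm2 back under oncogenic stress, so that a tumour without Arf can keep p53 intact but restrained. Nutlins fill the pocket on Mdm2 that p53 occupies. The (-) form is the active one, and its mirror image, the (+) form, serves as a control of the same composition. Other lists of Arf tumours 5 to 7 followed 3 h of 5 µM (+)-Nutlin, 1 µM doxorubicin or water, or no treatment. KI tumours 1 to 4, which carry a knock-in Trp53 allele over a deleted one, had 2 h of 100 nM OHT (4-hydroxytamoxifen) or of EtOH (ethanol). Against the Arf lists, the KI lists thus differ in genotype, treatment and time together.

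The lists give the start and end of each peak in mm9 coordinates and no height or read depth. They are of different kinds, which bears on every comparison below. All 3 (-)-Nutlin lists and the DMSO list of tumour 5 hold wide peaks, with narrowest peaks of 278 to 391 bp. The DMSO lists of tumours 6 and 7 hold narrow ones, with medians of 101 and 102 bp and narrowest peaks of 54 and 52 bp. Treatment and kind of list therefore change together in tumours 6 and 7 and cannot be told apart there, while tumour 5 gives a comparison within the wide kind. Among the lists outside the comparison, those of doxorubicin and OHT are wide, with narrowest peaks of 304 to 375 bp. The EtOH lists and the (+)-Nutlin, water and untreated lists of tumours 6 and 7 are narrow, with medians of 68 to 111 bp. In tumour 5 the control lists are wide. How far the kind of list sets the results was not tested. Gene annotation of mm9 was not used here, so sites are given by position and not by gene.

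The p53 peak list was longer after Mdm2 inhibition in every tumour. In tumour 5 the DMSO list held 1694 peaks and the (-)-Nutlin list 10503. In tumour 6 they held 935 and 10674 peaks, and in tumour 7 they held 892 and 5617. Every (-)-Nutlin list was longer than every DMSO list, and tumour 7 had the shortest list under both treatments. The ratio of geometric means was 7.64, with a paired 95% interval from 3.22 to 18.1 that assumes normal log2 differences. The two-sided exact permutation test gave p = 0.1, the smallest value that 3 against 3 lists allow, so no comparison of peak numbers here could pass a threshold of 0.05.

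The length of genome under peaks was larger as well. It was 1.03 Mb with DMSO and 5.25 Mb with (-)-Nutlin in tumour 5, 0.194 and 5.04 Mb in tumour 6, and 0.176 and 3.35 Mb in tumour 7. The folds were 5.09, 25.9 and 19.0, and the large ones belong to the tumours whose DMSO peaks are narrow. Peaks wider than 1 kb numbered 138 with DMSO and 460 with (-)-Nutlin in tumour 5, which is the comparison within wide lists.

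The mirror-image compound at the same dose and time gave shorter lists than the (-) form. (+)-Nutlin lists held 2351, 1148 and 707 peaks in tumours 5, 6 and 7, all below the shortest (-)-Nutlin list. The 2 forms differ in stereochemistry alone, and the (-) form exceeded the (+) form 6.91-fold, with a paired 95% interval from 2.65 to 18.0. The (+)-Nutlin lists of tumours 6 and 7 are of the narrow kind too, with medians of 93 and 111 bp, so compound and kind of list cannot be told apart there. Within the wide lists of tumour 5 the ratio was 4.47. Against DMSO the (+) form gave 1.11-fold, with an interval from 0.53 to 2.30, which does not show that it acts like the solvent. Over the 3 pairs of groups the exact permutation p-values, adjusted by the Benjamini-Hochberg method, were 0.15 for both pairs with (-)-Nutlin and 0.8 for (+)-Nutlin against DMSO. In tumour 5, 931 of 2351 (+)-Nutlin peaks lay outside the DMSO peaks of that tumour, beside 8848 of 10503 (-)-Nutlin peaks. Both counts share the same DMSO list.

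**Figure D1:**
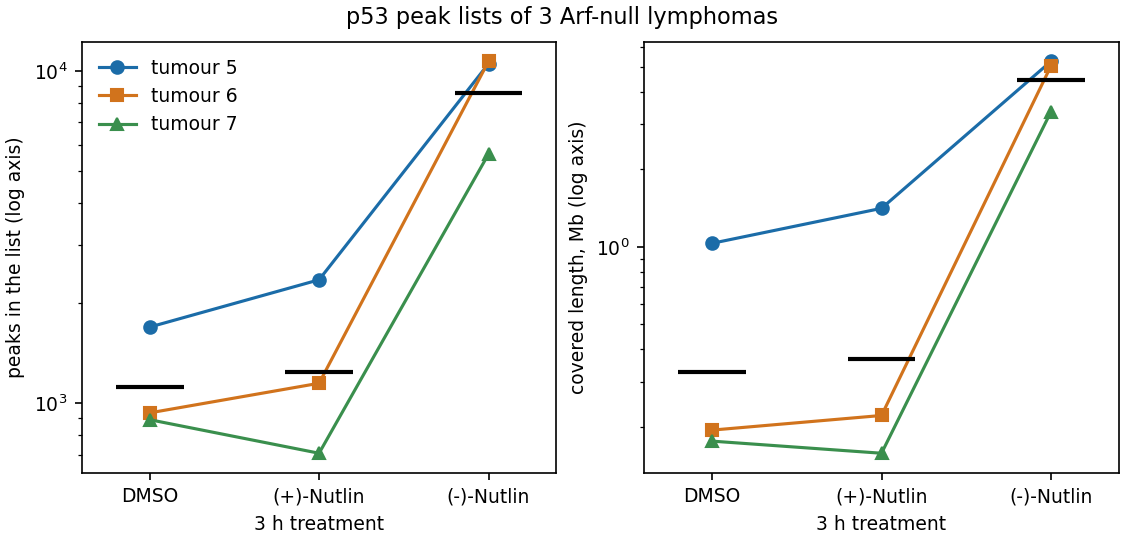
Number of peaks (left) and covered length in Mb (right), on log axes, for the DMSO, (+)-Nutlin and (-)-Nutlin lists of tumours 5, 6 and 7. Points are lists joined by tumour and black bars are geometric means. The (-)-Nutlin lists, at 5617 to 10674 peaks, lie above all 6 others.

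Peaks of the 6 lists were merged into 12661 regions wherever they shared at least 1 bp, and the regions fell mostly into classes without a DMSO peak. A region was called gained when it had a peak in all 3 (-)-Nutlin lists and in no DMSO list. There were 3532 gained regions, 27.9% of those compared. A further 3648 regions had a peak in 2 (-)-Nutlin lists and 3621 in 1, again with no DMSO peak. Of 399 regions present in all 3 DMSO lists, 395 were also in all 3 (-)-Nutlin lists, which is 3.12% of all regions, and 1 (0.0079% of all regions) was in none of them. With 1 list of each group allowed to differ, 8268 regions (65.3%) counted as gained and 10 (0.079%) as lost. No region was tested on its own, because 3 lists against 3 give Fisher's exact test a lowest p of 0.1, and 0 regions could have an unadjusted p under 0.05.

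**Figure D2:**
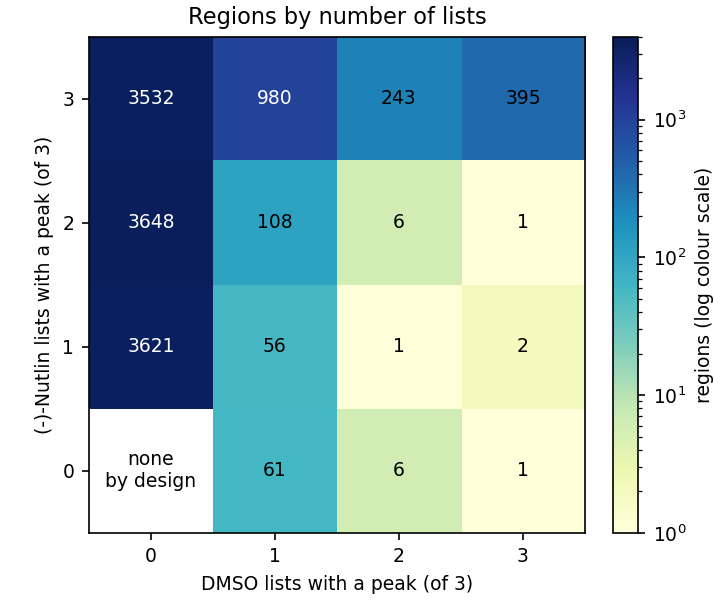
Regions by the number of (-)-Nutlin lists (vertical) and DMSO lists (horizontal) with a peak there, with the count printed in each field and shaded on a log scale. Gained regions are the upper left field, at 3532, and regions of all 6 lists the upper right one, at 395.

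Regions missed in tumour 7, the shortest (-)-Nutlin list, were many. Among regions with no DMSO peak, 3293 were called in tumours 5 and 6 and missed in tumour 7. By comparison, 274 were missed in tumour 6 alone and 81 in tumour 5 alone. Without tumour 7 the gained count was 6872 of 12583 regions. With the (-)-Nutlin lists shortened to their 5617 widest peaks, the length of the tumour 7 list, it was 1920 of 8186 regions.

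The (-)-Nutlin sites of the 3 tumours were largely nested. Of the peaks of tumour 7, 97.0% lay under a peak of tumour 5 and 93.4% under one of tumour 6. Tumours 5 and 6 covered 81.8% and 80.6% of each other. In the other direction 52.1% of the peaks of tumour 5 and 49.4% of those of tumour 6 lay under one of tumour 7. Regions private to a tumour numbered 1615 for tumour 5, 1985 for tumour 6 and 80 for tumour 7, so that the shorter list held few sites of its own.

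Private regions were narrow, with median widths of 329, 336 and 428 bp in tumours 5, 6 and 7, against 432, 417 and 525 bp for all peaks of those lists. Of the regions private to tumour 5, 64.8% had a peak in the doxorubicin list of tumour 5, an independent library of the same tumour. For tumour 7 the share was 71.3%, and for tumour 6 it was 17.8%. The doxorubicin list of tumour 6 overlapped little with (-)-Nutlin in general. It covered 42.1% of the (-)-Nutlin peaks of its tumour, compared with 87.3% in tumour 5 and 91.0% in tumour 7.

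Sites already called in solvent-treated cells remained called after Mdm2 inhibition. A (-)-Nutlin peak of the same tumour covered 1654 of 1694 DMSO peaks in tumour 5 (97.6%), 921 of 935 in tumour 6 (98.5%) and 850 of 892 in tumour 7 (95.3%). For peaks of DMSO lists under (-)-Nutlin peaks of another tumour the share was 94.6% ± 2.4 (SD, 6 pairs of lists), from 90.1% to 97.3%. By comparison, (+)-Nutlin lists covered 73.6% ± 9.6 (SD, n = 3) of the DMSO peaks of the same tumour. No correction for list length was made, and the (-)-Nutlin lists are the longer ones and, in tumours 6 and 7, wide where the (+)-Nutlin lists are narrow. In tumour 5, where all are wide, (+)-Nutlin covered 83.6% and (-)-Nutlin 97.6%.

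Among the (-)-Nutlin peaks themselves, those over a DMSO peak were the minority and the widest. They made up 1655 of 10503 peaks in tumour 5 (15.8%), 635 of 10674 in tumour 6 (5.95%) and 538 of 5617 in tumour 7 (9.58%). Their median width was 748, 846 and 985 bp in tumours 5, 6 and 7. Peaks without a DMSO peak had medians of 406, 408 and 512 bp. The difference was 418 ± 68 bp (SD, n = 3), in the same direction in 3 of 3 tumours, with an exact sign-change p of 0.25, the smallest that 3 tumours allow. A wide peak has more room to meet a DMSO peak. When (-)-Nutlin peaks were first cut to 200 bp around their midpoint, the difference was 427 bp, and when a DMSO peak in any of the 3 tumours counted it was 259 bp.

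The share over a DMSO peak was concentrated among the widest peaks. When the (-)-Nutlin peaks of each list were split into 10 equal classes by width, then in class 1, the narrowest, 0.76%, 0.37% and 1.07% lay over a DMSO peak in tumours 5, 6 and 7. In class 9 the shares were 35.0%, 7.59% and 17.8%, and in class 10, the widest, 71.5%, 40.3% and 63.1%. The 3 tumours had the same order in classes 9 and 10, with tumour 5 highest and tumour 6 lowest.

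**Figure D3:**
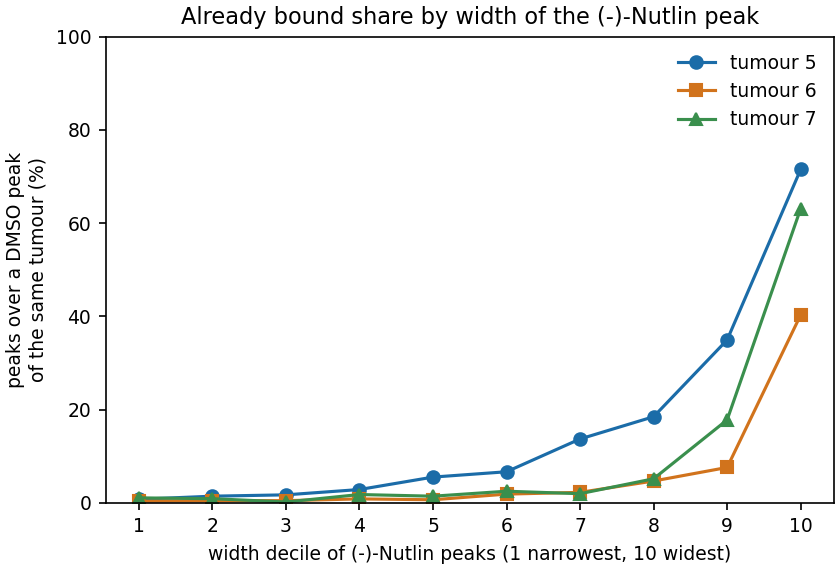
Share of (-)-Nutlin peaks, in percent, that overlap a DMSO peak of the same tumour (vertical), by class of (-)-Nutlin peak width, 1 narrowest to 10 widest (horizontal), with a line per tumour. The share is at most 6.67% up to class 6 and reaches 40.3% to 71.5% in class 10.

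Region classes showed the same gradient. Regions in all 3 (-)-Nutlin lists were ranked by the mean percentile of their peak width within those lists. Its median was 52.9 for the 3532 gained regions, 75.0 for 980 regions with 1 DMSO peak, 85.9 for 243 with 2, and 96.3 for the 395 with 3. Regions without a DMSO peak that were called in 2 or 1 (-)-Nutlin lists had medians of 36.7 and 21.1. A site called in more DMSO lists was thus wider under (-)-Nutlin, and among sites without a DMSO peak the recurrent ones were wider.

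In tumour 5, where both lists are of the wide kind, most sites called with DMSO had a wider peak under (-)-Nutlin. At 1654 shared sites the median width was 509 bp with DMSO and 748 bp with (-)-Nutlin. The median ratio was 1.36, a log2 difference of 0.44, with an interquartile range from 0.16 to 0.75, and 84.6% of sites were wider. The same measure against the same DMSO list gave 0.14 for (+)-Nutlin, 0.18 for water, 0.03 for untreated cells and 0.65 for doxorubicin. Each was taken over the DMSO sites shared with that list, 1417, 1425, 1494 and 1671 in the same order. The median DMSO widths there were 558, 558, 543 and 508 bp. No common set of sites was used, so these medians are not like for like. This is 1 tumour with 1 list per treatment, so there is no replicate check. In tumours 6 and 7 the median ratios of 7.43 and 9.22 set a wide list against a narrow one, so kind of list and treatment cannot be told apart there.

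**Figure D4:**
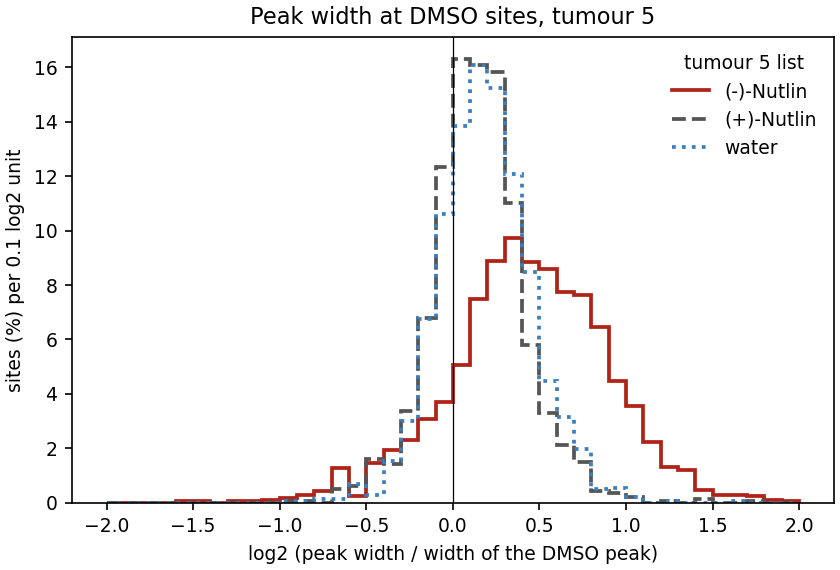
Distribution of the log2 ratio of peak width to the width of the DMSO peak at the same site in tumour 5 (horizontal), as percent of sites per 0.1 log2 unit (vertical), for the (-)-Nutlin, (+)-Nutlin and water lists. The (-)-Nutlin distribution has its median at 0.44, and the other lists at 0.14 and 0.18. Each covers the DMSO sites shared with its own list, 1654, 1417 and 1425 in this order.

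The ratio was larger where the DMSO peak was narrow. Split into 4 equal classes by DMSO width, the narrowest sites had medians of 361 bp with DMSO and 564 bp with (-)-Nutlin, and 94.9% of them were wider. For the widest class the medians were 906 and 1132 bp and 70.9% were wider. The DMSO width that sorts the sites also enters the ratio, so this gradient is no independent result.

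A minority of DMSO sites of tumour 5, 254 of 1654, were not wider under (-)-Nutlin. These had a median DMSO width of 681 bp, against 439 bp for the 740 sites that were wider by over 0.5 on the log2 scale. The 660 sites in between had 558 bp. The DMSO width enters the ratio that defines these classes, so this difference is no independent result. In the DMSO lists of tumours 6 and 7 the sites that were not wider had a peak in 46.5% and 42.5% of cases. The shares were 37.4% and 34.7% for the class in between, and 23.0% and 21.9% for the sites wider by over 0.5. The sites that were not wider were also looked up after p53 restoration by OHT in the KI tumours. In the OHT lists of tumours 1, 3 and 4 they had a peak in 61.4%, 45.3% and 32.3% of cases. For the sites wider by over 0.5 these shares were 82.0%, 76.9% and 50.7%. In tumour 2 the classes were close, with 127 of 254 and 375 of 740 sites. Doxorubicin lists of tumours 5, 6 and 7 had a peak in 98.4%, 97.6% and 98.4% of the sites that were not wider. For the sites wider by over 0.5 these shares were 100%, 89.3% and 99.1%, so the order was opposite in tumour 6. These differences were described, without adjustment for DMSO width, and not tested.

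The gained regions were then looked up in lists that played no part in choosing them. Doxorubicin, a DNA-damaging drug given to the same tumours, had a peak in 96.5% of the 3532 regions in tumour 5, 52.3% in tumour 6 and 88.6% in tumour 7. Among all 12661 regions the shares were 76.9%, 40.6% and 61.7%. OHT lists of KI tumours 1 to 4 had a peak in 38.3%, 39.0%, 89.3% and 88.2% of gained regions, compared with 28.9%, 25.9%, 68.2% and 66.5% of all regions. In each of these 7 lists the gained regions were called more often than regions in general, of which 3621 were in a single (-)-Nutlin list and no DMSO list. Among regions in all 3 (-)-Nutlin lists, the gained ones had the lowest share called in all 3 doxorubicin lists and in all 4 OHT lists. All 3 doxorubicin lists had a peak in 49.3% of them, compared with 85.5%, 99.6% and 99.7% of regions with 1, 2 and 3 DMSO peaks. For all 4 OHT lists the shares were 20.8%, 27.4%, 34.6% and 58.5%. The order differed for regions in no OHT list, at 5.12% of the gained ones and 12.6%, 6.17% and 1.77% of those with 1, 2 and 3 DMSO peaks. The lists differ in length, from 3597 to 11346 peaks, and a longer list holds more of any set.

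Some gained regions had a peak in a control list other than DMSO. (+)-Nutlin lists had one in 19.8%, 3.40% and 0.42% of gained regions in tumours 5, 6 and 7, water lists in 15.7%, 6.60% and 0.88%, and untreated lists in 23.9%, 9.03% and 0.31%. Among all 12661 regions the shares were 18.3%, 6.35% and 3.81% for (+)-Nutlin, 16.9%, 9.26% and 4.30% for water, and 20.8%, 11.9% and 3.56% for untreated lists. Tumour 5, with the longest control lists, was highest under each treatment, and its gained regions were near the general share, while those of tumours 6 and 7 were below it. The control lists of tumours 6 and 7 are narrow and those of tumour 5 wide, so tumour and kind of list cannot be told apart here. Of the 3532 regions, 1976 (55.9%) were in none of these 9 lists, 808 in 1 of them and none in all 9. Among all regions 69.6% were in none of the 9. Among the 395 regions of all 6 lists, 292 (73.9%) were in all 9.

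The 1976 regions called in none of the 12 Arf control lists were followed into the remaining lists. All 3 doxorubicin lists had a peak in 741 of them (37.5%), and 31 (1.57%) had a peak in no doxorubicin list. All 4 OHT lists had a peak in 272 (13.8%). Among all regions the shares were 34.8% in all 3 doxorubicin lists and 12.7% in all 4 OHT lists, close to those of the 1976 regions. By contrast, 16.9% of all regions were in no doxorubicin list, a larger share than among the 1976. Counting the 4 EtOH lists of KI tumours as controls too, 164 of the 1976 regions (8.30%) were called in all 10 lists of activated p53 and in none of 16 control lists. Any of the 12661 regions with this pattern is among the 1976 by definition. Choosing the 1976 had already set 3 of the 10 lists and 12 of the 16. All 10 are wide, while the control lists outside tumour 5 are narrow, so activation and kind of list cannot be told apart there.

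**Figure D5:**
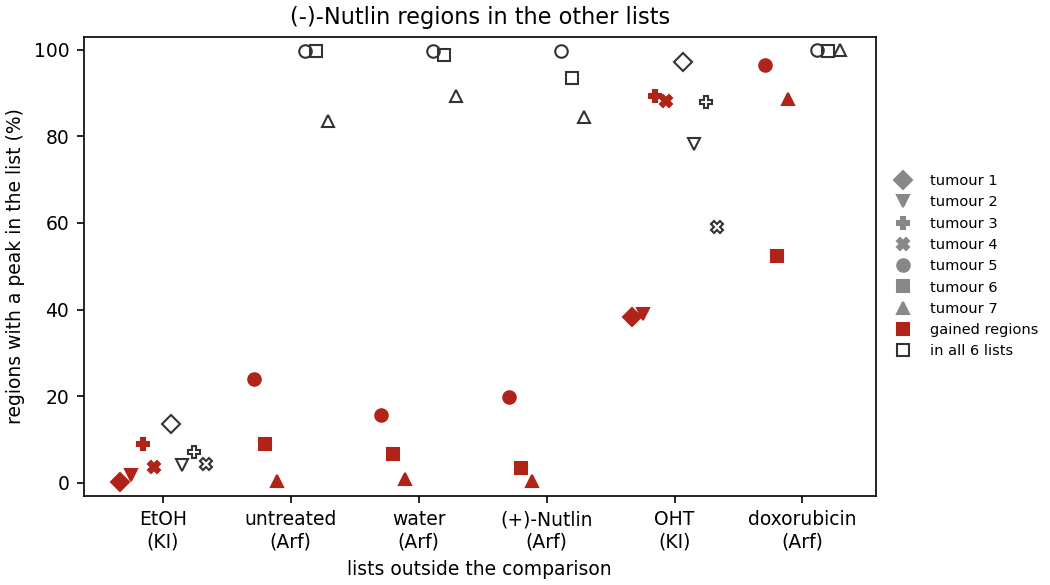
Percent of the 3532 gained regions (filled) and of the 395 regions called in all 6 lists (open) that have a peak in each list outside the comparison (vertical), grouped by treatment (horizontal), with a symbol per tumour. Gained regions stay at or below 23.9% in the control lists and lie between 38.3% and 96.5% in OHT and doxorubicin lists. OHT and doxorubicin lists are of the wide kind, and the control lists of all tumours but tumour 5 are of the narrow kind.

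Gained regions with the widest (-)-Nutlin peaks, 10 by the ranking, had no DMSO peak and peaks of 957 to 1849 bp. The first lay on chromosome 17 from 27691990 to 27693799, with (-)-Nutlin peaks of 1783, 1686 and 1725 bp in tumours 5, 6 and 7. It had a peak in 1 (+)-Nutlin list, 1 untreated list, 2 doxorubicin lists and 3 OHT lists. Next came chromosome 7 from 3644275 to 3646123, with 1849, 1090 and 1262 bp, which had a peak in none of the 9 other Arf control lists. It was the only region of the 10 without one.

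The other 8 regions had a peak in 1 to 3 of the 9 lists. The region on chromosome 3 from 19527941 to 19529236 had (-)-Nutlin peaks of 1296, 1211 and 1219 bp, and a peak in 1 (+)-Nutlin and 2 water lists. On chromosome 15, from 81641090 to 81642276, widths were 1187, 1093 and 1070 bp, with a peak in 1 of the 9 lists, an untreated one, and in all 3 doxorubicin lists. On chromosome 19, from 32786393 to 32787640, they were 1159, 965 and 1105 bp, again with 1 untreated list, and with all 3 doxorubicin and all 4 OHT lists. The region at chr4:129012311-129013458 was in all 4 OHT lists and in 2 of the 9 control lists, as was chr11:106649575-106650952. Likewise chr10:80164522-80165646, chr1:180248306-180249525 and chr19:8893499-8894793 were in all 4 OHT lists, and each was in 3 of the 9 control lists.

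The 10 widest regions of all 6 lists were called throughout the Arf and OHT lists and differed in EtOH lists and in width change. All 10 had a peak in each of the 9 other Arf control lists, in each doxorubicin list and in each OHT list. Whether regions called this widely are p53 sites was not tested. The first, on chromosome 17 from 39979759 to 39985951, had (-)-Nutlin peaks of 4029, 6050 and 6193 bp and DMSO peaks of 6114, 1067 and 681 bp in tumours 5, 6 and 7. In tumour 5 it was narrower under (-)-Nutlin than with DMSO. At chr4:43987641-43990547 it measured 2198 bp with (-)-Nutlin against 2907 bp with DMSO, and at chr14:79541641-79544275 it measured 2287 against 2601 bp. The regions chr8:4610996-4613486 (1984 against 2277 bp), chr7:16893218-16895510 (1961 against 2293 bp) and chr3:32261823-32264977 (2945 against 3084 bp) were narrower too.

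The other 4 were wider in tumour 5. At chr9:103352314-103354417 the tumour 5 peak measured 1070 bp with DMSO and 1951 bp with (-)-Nutlin. At chr8:23543546-23545896 the widths were 1564 and 2303 bp, at chr10:61050479-61052851 they were 2000 and 2373 bp, and at chr11:6426110-6428991 they were 2662 and 2882 bp. In EtOH-treated KI tumours the regions on chromosomes 9, 10 and 3 and that from 23543546 on chromosome 8 had no peak, whereas those on chromosomes 17, 11 and 7 and that from 4610996 on chromosome 8 had a peak in all 4 lists.

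Loss of a called region was rare. No filter for repeats or high background was applied here, so whether such regions are p53 sites was not tested. The region lost by the rule above lay on chromosome 2 from 98502250 to 98502955, with DMSO peaks of 692, 64 and 151 bp in tumours 5, 6 and 7. It had a peak in 7 of the 9 other Arf control lists, in 3 of the 4 EtOH lists and in no doxorubicin or OHT list. Another 6 regions had a peak in 2 DMSO lists and no (-)-Nutlin list, all in tumours 6 and 7, with peaks of 53 to 165 bp. Peaks this short are below the narrowest peak of any (-)-Nutlin list. Among DMSO peaks outside the (-)-Nutlin peaks of the same tumour, 40 in tumour 5 had a median width of 401 bp, 14 in tumour 6 one of 57 bp and 42 in tumour 7 one of 70 bp.

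Gained regions were spread over the autosomes and the X chromosome. Their share of the regions on a chromosome ran from 18.5% on chromosome 14 to 31.8% on chromosome 7, and was 17.8% on chromosome X, beside 27.9% overall. Chromosomes 14, X and 3, the last at 19.4%, were the lowest. The median distance of a gained region to a DMSO-called region was 220 kb, compared with 241 and 255 kb for regions of 2 and 1 (-)-Nutlin lists, and 4.25%, 4.33% and 4.09% lay within 10 kb. These are descriptions without a test.

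Most gained regions stood alone, 2885 of 3532 with no other within 20 kb. The longest chain of neighbours at most 20 kb apart held 6 gained regions, on chromosome 13 from 23609545 to 23673819. That stretch held 13 regions in all, 1 of them with a DMSO peak. Of its 6 gained regions, 3 had a peak in some of the 9 other Arf control lists. Chains of 5 lay at chr17:35998062-36054068 and chr7:51786533-51828059. How often regions in general lie this close was not measured. The chains were singled out after their values were seen.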

How the data were processed

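Peak lists of 1 library each, without header or score, were used as deposited by the authors, with positions and widths in base pairs as the only values. No further filter for repeats or regions of high background was applied. Per the submitters' processing notes, BWA 0.6.2, SAMtools and the build mm9 were used. How peaks were called, and with which threshold or input library, is not given in the sources used here. Read depth per library is unknown. Groups and tumour numbers were read from the titles, and a tumour number marks cells of the same tumour, which pairs the lists. The mean share of DMSO peaks under a (-)-Nutlin peak was 97.1% within a tumour and 94.6% between tumours. For DMSO peaks of tumour 7 the counts under the (-)-Nutlin lists of tumours 5, 6 and 7 were 849, 850 and 850 of 892. Such shares also depend on list length, so they do not check the pairing.

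Lists were compared in Python 3.11.15 with numpy 2.4.6, pandas 2.3.3 and scipy 1.17.1, by overlap of at least 1 bp. Peak numbers, as log2 values, were compared with two-sided exact permutation tests, and paired differences with exact sign changes. With tumours paired, the exact p for the number of peaks was 0.25, the smallest possible. The code was tested on simulated lists. Regions were named by rank of mean width percentile over the (-)-Nutlin lists: 10 gained, 10 of all 6 lists, and lost regions where 5 or fewer. Members and rules were chosen with earlier results of these data known. The RefSeq tables at hand are of GRCm38, so nearby genes, distance to transcription starts, the p53 motif and sequences were not analysed here. Alternatives covered list length, width, merging, overlap, strictness and each tumour in turn.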

Additional observations from a re-analysis of the deposited data

How the results depend on the processing

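Read depth is unknown, so a longer list may reflect binding or sensitivity. The log2 ratio of peak numbers, 2.93, kept its direction under all 8 alternatives run, from 2.63 in tumour 5 alone to 4.30 among peaks of at least 443 bp. With a replicate block for the tumour it was 2.93 by construction, with an exact p of 0.25 instead of 0.1. Each p is the smallest its test allows, so the block could change no call. Gained regions, 3532 of 12661 compared, became 8268 of 12661 when 1 list of each group could differ. They were 1920 of 8186 with (-)-Nutlin lists shortened and 1714 of 6896 among the wider peaks. In tumour 5 alone they were 8848 of 10539, and 1976 of 12661 were without a peak in the 9 other Arf control lists. With a tumour left out they ran from 3880 of 10702 to 6872 of 12583. Tumour 5 alone, the 9 other control lists and the cut of (-)-Nutlin peaks to 200 bp for the width difference were chosen after seeing the data. Lost regions, 1, became 3 with peaks of 200 bp, 10 when 1 list could differ, 3 with lists shortened, 0 among the wider peaks, 40 in tumour 5 alone and 1 to 7 with a tumour left out. The cause was not tested. The share of DMSO peaks covered stayed within the SD between tumours, 1.66 percentage points, under every alternative run. The share of gained regions with a doxorubicin peak did so too, but its SD was 23.5 points, so large shifts also passed. The width difference kept its direction under every alternative run. Its exact sign-change p cannot be below 0.25, or 0.5 with a tumour left out, so its side of the threshold could not change. Its size fell from 417.5 bp, with an SD of 67.6 bp, to 259 bp when a DMSO peak in any tumour counted. The doxorubicin share was 92.6% without tumour 6 and 63.5% without tumour 7, instead of 79.1%. Settings that need a genome of the build mm9 were not run.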

Other observations

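Mitochondrial DNA appeared in the (-)-Nutlin lists of tumours 6 and 7. Each had 5 peaks on chromosome M, which together covered 11218 bp in tumour 6 and 10085 bp in tumour 7. The widest ran from 8 to 5045 in tumour 6 and from 10912 to 15378 in tumour 7. The (-)-Nutlin list of tumour 5 had none, nor had the 3 DMSO lists and the 3 doxorubicin lists. Of the 26 lists just 1 other, (+)-Nutlin in tumour 7, had a peak there, of 63 bp. These values were singled out after they were seen.

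Regions called in all 6 lists and gained regions differed in how they were spread over KI tumours. The OHT list of tumour 4 had a peak in 59.0% of the 395 regions of all 6 lists and in 88.2% of the 3532 gained ones. For tumour 3 the shares were 87.8% and 89.3%. The order was opposite in tumours 1 and 2, with 97.2% and 78.2% of the regions of all 6 lists and 38.3% and 39.0% of the gained ones. Among all regions the OHT shares were 28.9%, 25.9%, 68.2% and 66.5% in tumours 1 to 4, whose OHT lists held 4102, 3597, 10084 and 9738 peaks. EtOH lists of tumours 1, 2, 3 and 4 had a peak in 13.7%, 4.05%, 7.09% and 4.30% of the regions of all 6 lists. For the gained ones the shares were 0.17%, 1.70%, 9.06% and 3.62%, so of these 2 classes they were the higher in tumour 3 alone. Among all regions the EtOH shares were 0.55%, 1.26%, 4.84% and 2.39%. Gained regions thus lay above the general share in tumours 2, 3 and 4 and below it in tumour 1. No test was made of these differences.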
